A study of Mus musculus with 2 samples.

Results

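The promoters described here belong to protein-coding mouse genes that are poor in CpG dinucleotides and yet lay in open chromatin in the embryonic hindbrain. A gene counted as low-CpG when the highest ratio of observed to expected CpG, taken over 500 bp to each side of any of its annotated starts, was below 0.35. It counted as open when a window reaching 1 kb to each side of a start held a deposited DNase-seq peak of both libraries. By this rule 874 genes with 1360 open starts were found among 7106 low-CpG genes and among 21707 protein-coding genes in all. The genes were chosen by the presence of peaks and by the CpG ratio, so the shares, heights and positions below describe them and were put to no test. The rest of the series, against which they are set, is the 13550 open genes with a ratio of 0.35 or more, called the other open genes.

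The study assayed hindbrain tissue of healthy B6NCrl mouse embryos at 11.5 days, with male and female embryos pooled. It has 1 group, with 2 libraries that the labels call biological replicates 1 and 2, and no treated or control group. The sources used here do not say how many embryos made up a pool. The labels name separate biosamples and the same donor entry for both, and by its title the series has since been replaced. DNase-seq uses the nuclease DNase I, which cuts accessible DNA in nuclei, and sequencing of the cut ends shows where chromatin is open. In tissue that mixes cell types, fewer cells with an open site and less opening in each cell cannot be told apart.

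In mammalian genomes methylated CpG is lost over evolution, so that most DNA holds few CpG dinucleotides. The exceptions are CpG islands, unmethylated stretches that hold the promoters of housekeeping and many developmental genes and that tend to be open in every cell type. Promoters outside CpG islands are classically those of genes used in 1 or a few tissues, more often carry a TATA box, and tend to open where their gene is used.

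Replicate 1 had 150176 analysed peaks and replicate 2 had 194873, each 150 bp wide. Each peak carried a height given by the authors as a whole number, with a median of 36 in replicate 1 and 50 in replicate 2. The read depth is unknown, and the heights of the libraries share no visible scale. Where a pair of heights is printed, replicate 1 stands before replicate 2, and the height of a gene is that of its highest peak in any open window. Against 66.4% of all protein-coding genes, all 5 progenitor and all 5 neuron markers were open in both libraries, and 7 of 10 hindbrain markers, which is near that share, while Hoxa2, Hoxb1 and Hoxb2 had a peak in replicate 2 alone. Over the Hox clusters 13 of 39 genes had a peak in replicate 2 alone, with heights between 84 and 116, and 1 had a peak in replicate 1 alone. A peak in replicate 2 alone was found in 5.53% of all low-CpG genes and 1.90% of the other genes. All 5 forebrain markers were open as well, 0 of 5 liver markers, 1 of 5 skeletal muscle markers, 1 of 7 myeloid markers, 2 of 7 erythroid markers and 2 of 6 endothelial markers. Low-CpG were 4 of the 5 liver, 3 of the 5 skeletal muscle, all 7 myeloid, 6 of the 7 erythroid and 4 of the 6 endothelial markers. Of the neural sets, 0 of the 5 forebrain, 1 of the 5 progenitor and 2 of the 5 neuron markers were. Of all low-CpG genes 12.3% were open, so CpG class and cell type cannot be told apart in these counts.

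Of the 7106 low-CpG genes, 12.3% were open in both libraries (95% exact interval 11.5 to 13.1), against 92.8% of the other protein-coding genes (92.4 to 93.2). Over all protein-coding genes the share was 66.4%. A further 393 low-CpG genes had a peak in replicate 2 alone, with a median height of 36, and 135 had one in replicate 1 alone, with a median height of 21. No peak of either library lay near a start of 5703 low-CpG genes, which is 80.3% of them. The intervals cover counting error over genes and not the variation between embryos.

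The share of open genes climbed along the CpG ratio without a step at 0.35. It was 1.68% for ratios below 0.05, 4.44% between 0.1 and 0.15, 13.2% between 0.2 and 0.25, 23.8% between 0.25 and 0.3, and 35.9% between 0.3 and 0.35. Just past the limit, between 0.35 and 0.4, it was 51.2%, and at 0.8 or more it was 99.1%. The heights of the open genes climbed as well. Their medians were 36 and 40 for ratios below 0.05 (5 genes), 58.5 and 84 between 0.3 and 0.35 (280 genes), and 58 and 90 between 0.35 and 0.4 (343 genes). Just inside the limit stood Zfp457 (93 and 125), Cyb5r2 (56 and 64) and Nyap2 (33 and 78) as open genes, while Ccr4, with no peak, and Pkp3, with a peak of 31 in replicate 2 alone, stood closer still. Just outside it, Slc2a10 (51 and 85), Gria1 (46 and 63) and Wnt16 (40 and 79) were open, and Gpr151 had no peak.

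**Figure D1:**
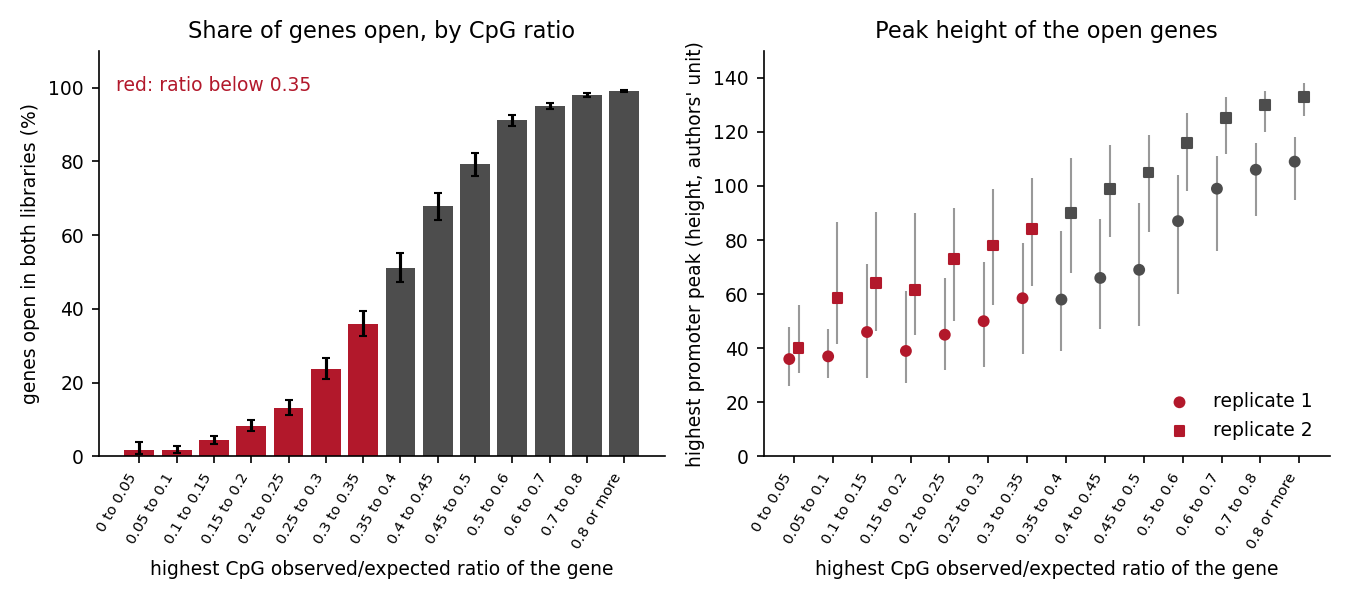
Share of protein-coding genes open in both libraries (left, %, bars with exact 95% intervals) and heights of the open genes (right, medians with quartiles, replicate 1 as circles and replicate 2 as squares) against the highest CpG ratio of the gene. Red marks ratios below 0.35, where the share climbed to 35.9% in the last bin, against 51.2% in the first bin above the limit.

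The DNA before the starts of the highest such promoters shows where their CpG dinucleotides lie. The ratio of the rule covers 500 bp to each side of a start, so a shorter stretch can be richer in CpG. Printed are the 149 bases before a start and its first base for the first 10 genes by height whose highest peaks lay within 100 bp of a start in both libraries and whose windows held no start of another protein-coding gene. The bases come from the RefSeq copy of GRCm38.p6 (mm10), run 5′ to 3′ along the gene, and carry every CpG in capitals. Tldc1, which codes for a TLD-domain protein, is at chr8:119778416-119778565 on the minus strand. Gstm7, a glutathione S-transferase of the mu class, is at chr3:107931817-107931966 on the minus strand. Angptl2, a secreted angiopoietin-like protein, is at chr2:33215920-33216069 on the plus strand. Mfng, a fringe glycosyltransferase that modifies Notch receptors, is at chr15:78773475-78773624 on the minus strand. Fam92b, which codes for a protein of the base of cilia, is at chr8:120177466-120177615 on the minus strand. Fgd3, an exchange factor for the GTPase Cdc42, is at chr13:49320311-49320460 on the minus strand. Pnmal1, of the paraneoplastic antigen family, is at chr7:16959530-16959679 on the plus strand. Dpp7, a vesicular dipeptidyl peptidase, is at chr2:25356359-25356508 on the minus strand. Tpcn2, a cation channel of lysosomes, is at chr7:145284011-145284160 on the minus strand. 4930505A04Rik is at chr11:30471808-30471957 on the minus strand.
Tldc1: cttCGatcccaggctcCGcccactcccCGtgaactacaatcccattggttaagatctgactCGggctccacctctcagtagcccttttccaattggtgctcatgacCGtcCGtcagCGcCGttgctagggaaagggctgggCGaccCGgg
Gstm7: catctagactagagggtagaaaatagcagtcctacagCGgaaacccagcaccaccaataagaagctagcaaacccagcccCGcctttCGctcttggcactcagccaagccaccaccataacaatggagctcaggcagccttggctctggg
Angptl2: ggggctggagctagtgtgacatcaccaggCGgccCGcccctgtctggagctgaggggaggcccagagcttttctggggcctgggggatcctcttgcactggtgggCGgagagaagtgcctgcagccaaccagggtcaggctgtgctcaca
Mfng: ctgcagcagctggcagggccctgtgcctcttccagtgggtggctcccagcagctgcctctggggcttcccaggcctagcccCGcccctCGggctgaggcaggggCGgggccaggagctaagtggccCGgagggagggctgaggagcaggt
Fam92b: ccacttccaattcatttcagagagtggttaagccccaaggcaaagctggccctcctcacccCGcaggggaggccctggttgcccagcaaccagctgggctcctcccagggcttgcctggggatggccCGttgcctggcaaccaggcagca
Fgd3: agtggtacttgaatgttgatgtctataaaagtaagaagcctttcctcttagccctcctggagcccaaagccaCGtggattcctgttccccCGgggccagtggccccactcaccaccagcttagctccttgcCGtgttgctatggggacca
Pnmal1: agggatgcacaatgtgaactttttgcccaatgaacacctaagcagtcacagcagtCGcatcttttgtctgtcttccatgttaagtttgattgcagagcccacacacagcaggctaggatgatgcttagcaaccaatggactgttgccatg
Dpp7: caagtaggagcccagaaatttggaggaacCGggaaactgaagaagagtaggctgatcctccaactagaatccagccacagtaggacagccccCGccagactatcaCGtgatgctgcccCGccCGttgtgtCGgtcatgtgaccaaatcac
Tpcn2: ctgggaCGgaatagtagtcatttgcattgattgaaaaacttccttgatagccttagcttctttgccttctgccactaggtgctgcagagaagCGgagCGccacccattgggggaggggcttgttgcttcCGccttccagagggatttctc
4930505A04Rik: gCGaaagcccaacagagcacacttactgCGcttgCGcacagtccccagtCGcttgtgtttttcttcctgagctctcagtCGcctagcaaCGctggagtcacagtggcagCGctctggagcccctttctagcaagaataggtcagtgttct

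These stretches held between 1 CpG (Pnmal1) and 10 CpG (Tldc1) in 150 bases, and their GC content ran from 46.7% in Pnmal1 to 72.7% in Mfng. Low CpG content was therefore not the same as low GC content in this set. The GC box, GGGCGG on either strand, was present in Tldc1, Angptl2, Mfng and Dpp7, and the CCAAT box, CCAAT on either strand, in Tldc1, Gstm7, Fam92b, Pnmal1 and Tpcn2. Fgd3 and 4930505A04Rik held neither. None of the 10 had a TATA word, TATAAA or TATATA, beginning 40 to 20 bases before the start. Over the 150 bp of the highest peak, the open low-CpG genes had a median of 3 CpG in replicate 1 and 4 in replicate 2, against 14 in the other open genes in both. Their median GC content in the peak was 55.3% and 56.0%, against 66.7% and 67.3%. The peak held no CpG in 60 open low-CpG genes in replicate 1 and in 57 in replicate 2.

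For contrast, a further set shows promoters of the same kind that do carry a TATA word, printed in capitals, taken in order of height under the same conditions. Vcam1, a cell adhesion molecule with heights of 93 and 100, came first in that order but is not printed, since the annotation puts an exon across the stretch. Adamtsl2, a secreted matrix glycoprotein, is at chr2:27079230-27079379 on the plus strand. Myh11, the myosin heavy chain of smooth muscle, is at chr16:14291372-14291521 on the minus strand. Agtr1b, a receptor of angiotensin II, is at chr3:20367177-20367326 on the minus strand. Vip, a neuropeptide, is at chr10:5639069-5639218 on the plus strand.
Adamtsl2: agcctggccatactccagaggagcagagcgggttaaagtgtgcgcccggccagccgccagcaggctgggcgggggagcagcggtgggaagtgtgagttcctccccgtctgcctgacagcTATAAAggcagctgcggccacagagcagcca
Myh11: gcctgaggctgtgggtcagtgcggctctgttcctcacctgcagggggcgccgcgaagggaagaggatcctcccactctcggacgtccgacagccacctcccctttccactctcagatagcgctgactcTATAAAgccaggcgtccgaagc
Agtr1b: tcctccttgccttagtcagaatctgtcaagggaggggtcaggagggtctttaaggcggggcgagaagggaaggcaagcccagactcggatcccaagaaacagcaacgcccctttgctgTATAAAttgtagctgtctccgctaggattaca
Vip: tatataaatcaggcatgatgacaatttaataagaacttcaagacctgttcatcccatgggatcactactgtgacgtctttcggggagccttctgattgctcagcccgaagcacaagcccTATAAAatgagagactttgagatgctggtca

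The TATA word began 30 bases before the start in Adamtsl2 and Vip, 31 in Agtr1b and 21 in Myh11. Heights in this set were 66 and 98 for Adamtsl2, 61 and 90 for Myh11, 42 and 60 for Agtr1b, and 29 and 59 for Vip. The first 10 sequences ran from 97 to 125 in replicate 1 and from 121 to 137 in replicate 2, and since they were taken as the highest, a lower height of this set follows from the choice.

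Open low-CpG promoters had lower peaks than the other open promoters. In replicate 1 their median was 49, with the middle of the genes between 32 and 72, against 102 (80 to 114) for the other open genes. In replicate 2 it was 76 (54 to 98), against 128 (114 to 135). The upper quartile of the low-CpG genes thus stayed below the lower quartile of the others in both libraries. A height above 100 was reached by 45 of the 874 genes in replicate 1 (5.15%) and 184 in replicate 2 (21.1%), against 52.6% and 86.3% of the other open genes. The median height of all peaks of the library was passed by 67.0% and 78.1% of the open low-CpG genes. It was passed in both libraries by 554 genes, which is 7.8% of all low-CpG genes, against 62.9% of all protein-coding genes. The choice of genes favours passing it. A gene counts by its highest peak and needs a peak of both libraries, while the library median covers every single peak.

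**Figure D2:**
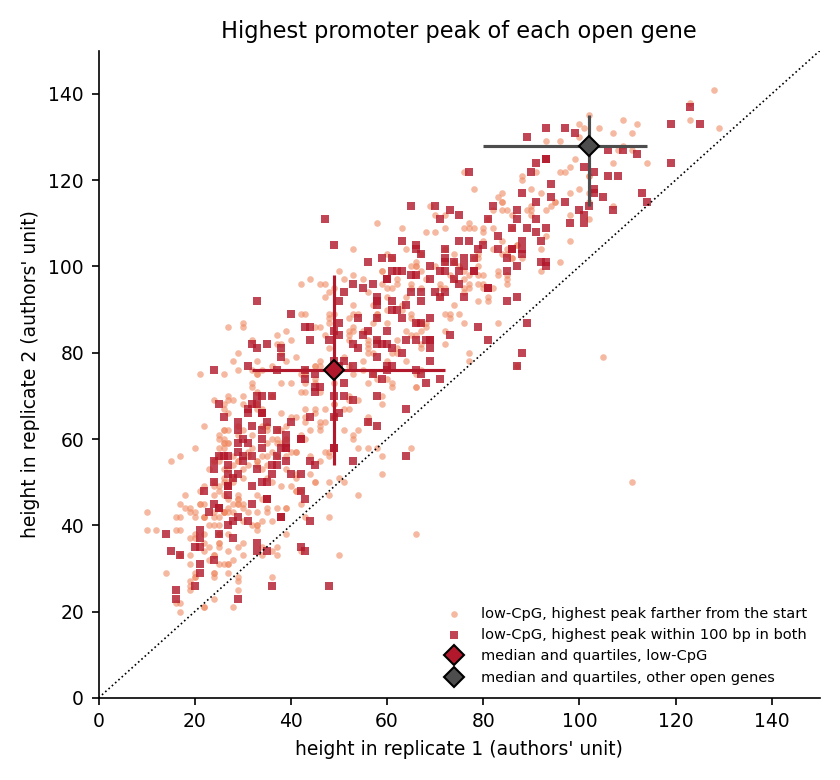
Height of the highest promoter peak in replicate 2 against replicate 1 (authors' unit) for each of the 874 open low-CpG genes, with squares for genes whose highest peak lay within 100 bp of a start in both libraries. Diamonds with bars give medians and quartiles, at 49 and 76 for low-CpG genes and at 102 and 128 for the other open genes, and most points lie above the dotted line of equal heights.

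The hotspots, wider regions of enriched cutting called by the authors, were also narrower. The hotspot under the highest peak had a median width of 313 bp in replicate 1 and 638 bp in replicate 2 at low-CpG genes, against 962 and 1672 bp at the other open genes. It carried the top deposited value of 100, on the −log10 scale of the false discovery rate, in 54.9% and 71.1% of low-CpG genes, against 91.7% and 98.5% of the others. No open window of the gene held more than 1 peak in 60.2% of low-CpG genes in replicate 1 and 46.9% in replicate 2, against 17.3% and 19.5% of the others.

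The highest peak also sat less tightly at the start. It lay within 100 bp of a start in 41.2% of low-CpG genes in replicate 1 (37.9 to 44.5) and 39.9% in replicate 2 (36.7 to 43.3), against 65.2% and 65.3% of the other open genes. It lay over 500 bp away in 32.2% and 29.7%, against 7.12% and 6.75%. In replicate 1 the peak centre fell upstream of the gene in 49.5% of low-CpG genes, in an intron in 25.5%, in a non-coding exon in 18.6% and in a coding exon in 6.06%. For the other open genes the intron share was 15.1%. Among low-CpG genes whose peaks were close in both libraries, 233 had the peak before the start and 69 after it in replicate 1, and 202 and 99 in replicate 2.

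**Figure D3:**
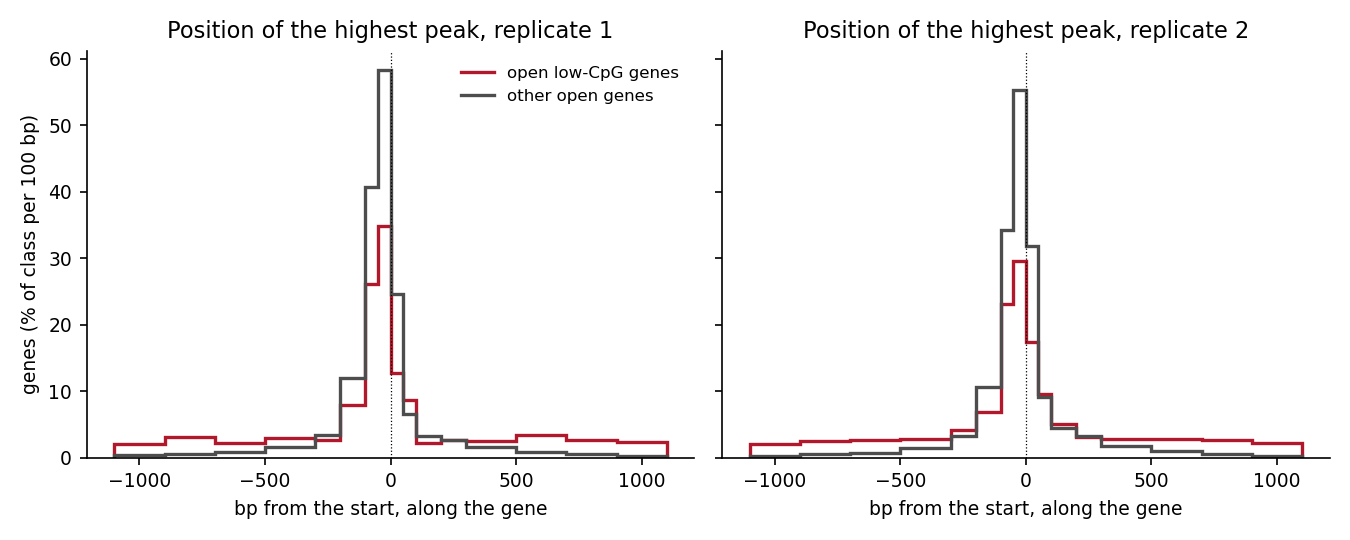
Position of the highest peak relative to the start (bp, negative is upstream) as the percent of genes per 100 bp, for open low-CpG genes (red) and the other open genes (grey), by library. Both curves rise just before the start, and the red curve keeps a flat shoulder out to the window's edge, where over 500 bp away stood 32.2% of low-CpG genes in replicate 1 against 7.12% of the others.

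By position the 874 genes split into 305 with the highest peak within 100 bp of a start in both libraries, 237 with it over 500 bp away in both, and 332 others. The others hold genes with peaks at distances in between. They also hold genes close in 1 library and distant in the other, such as Grn (95 and 835 bp). Median heights were 58 and 82 in the first set, 55 and 82 in the second, and 41 and 65 in the third. The close and the distant set thus had like medians, and the set of all others the lowest. In replicate 1 the peak lay nearer to the start of another gene in 29 of the 237 distant cases and 1 of the 305 close ones. Over 500 bp to each side of the distant peaks the CpG ratio reached 0.6 in 31 of the 237 in replicate 1. No such comparison is made for the close peaks, whose surroundings the rule itself holds to a low ratio.

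The very highest genes show this best. Of the 15 highest by mean rank, 8 had the start of another protein-coding gene in the window and their peak nearer to that start than to their own. Pinlyp, which codes for a phospholipase inhibitor (128 and 141), had its peak 952 and 932 bp before its start in replicates 1 and 2, and the replicate 1 peak lay 80 bp from the start of the DNA repair gene Xrcc1. Naif1 (123 and 138) shared its peak with Slc25a25, a mitochondrial carrier gene, whose start was 85 bp away. The other 6 were 4930442H23Rik (129 and 132) beside the kinase gene Dapk3, Zfp646 (112 and 133) beside Zfp668, Thbs3 (109 and 134) beside Mtx1, Frg2f1 (107 and 131) beside the forkhead gene Foxj3, Cbln3 (111 and 127) beside Khnyn, and Tbc1d10c (102 and 135) beside Ppp1ca, the catalytic subunit of a protein phosphatase. At the replicate 1 peaks of these 8 genes the CpG ratio ran from 0.544 (Cbln3) to 1.08 (Naif1).

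Over all 874 genes this was rare. Another protein-coding start stood in an open window of 36 genes (4.12%), against 16.4% of the other open genes. Their median heights of 82.5 and 102.5 stood above the 48 and 75.5 of the 838 genes with no such neighbour. In 12 of these 838 in replicate 1 and 9 in replicate 2, the peak still lay nearer to another protein-coding start, which stood outside the open windows. In 7 cases a pair of low-CpG genes shared the same highest peaks, among them the immunity genes Igtp and Irgm2, the membrane protein genes Tmem176a and Tmem176b, and Bco2 with the cytokine gene Il18.

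The remaining 7 of the 15 highest genes had no neighbouring start. Tldc1 had heights of 123 and 137, with its peak 54 bp before the start in both libraries. Gstm7 had 125 and 133, with the peak 13 bp before the start, and Angptl2 had 119 and 133, with the peak 79 bp before it. Mfng reached 112 and 126. Dlg4, which codes for the scaffold protein PSD-95 of excitatory synapses, had 123 and 134. Its highest peak lay 177 bp before 1 start in replicate 1 and 125 bp after a start in replicate 2. Amigo3, a leucine-rich repeat adhesion protein, had 109 and 128, with the peak 109 bp before the start. Epha10, an ephrin receptor, had 111 and 131, but its peak lay 831 and 811 bp into the gene, where the CpG ratio was 0.558. The lowest 5 genes were Olfr969 (17 and 22), Fam170a (16 and 25), Zfp988 (16 and 23), Cyp2b10 (17 and 20) and Tnfrsf26 (16 and 22).

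The heights of the libraries ranked the genes alike. Spearman's rho across genes was 0.875 over the 874 open low-CpG genes and 0.871 over the 13550 other open genes, where genes share the libraries and are not independent replicates. Within narrow ranges of height it was lower, for example 0.483 over the 232 low-CpG genes with a replicate 1 height of 51 to 75 and 0.468 over the 1810 others in that range. The libraries had their highest peak at the same place, within 75 bp, in 78.6% of low-CpG genes (75.7 to 81.3), against 83.3% of the others (82.7 to 83.9). By the raw numbers, replicate 2 stood lower than replicate 1 in 38 low-CpG genes (4.35%) and in 36 of the others (0.266%). The libraries share no visible scale and the classes differ in height, so this count does not measure agreement.

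The ratio of heights, replicate 2 over replicate 1, had a median of 1.43 in low-CpG genes and 1.25 in the other open genes. For a view by height, peaks were paired one to one between the libraries with an overlap of at least 75 bp and grouped by their replicate 1 height. At 26 to 50 the median ratio was 1.66 at 368 promoter peaks of low-CpG genes alone, 2.04 at 4761 other promoter peaks and 1.55 at 29902 peaks over 1 kb from any protein-coding start. At 51 to 75 the medians were 1.39, 1.65 and 1.31 in the same order, and at 76 to 100 they were 1.25, 1.35 and 1.21. Replicate 1 height is also the lower term of the ratio, so the pairs were grouped in other ways as well, which was chosen after the data were seen. By the mean height of both libraries the medians were 1.69, 1.94 and 1.53 at 26 to 50, and 1.53, 1.98 and 1.46 at 51 to 75. By replicate 2 height they were 1.52, 1.63 and 1.38 at 26 to 50, and 1.65, 1.94 and 1.53 at 51 to 75. From 26 to 100 the low-CpG promoters thus lay between the other promoters and the distal sites under each of the 3 groupings. Above 100 they differed little from the other promoters, with 1.20 against 1.22 by mean height, and at 1 to 25 by mean height they stood at 1.56 (17 peaks), against 1.53 (76 peaks).

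By the number of CpG in the replicate 1 peak, the low-CpG promoter pairs of all heights had flat median ratios, at 1.46 with 1 or 2 CpG, 1.46 with 3 to 5 and 1.47 with 6 to 10, against 1.67, 1.64 and 1.43 at other promoters and 1.37, 1.45 and 1.51 at distal sites. Within replicate 1 heights of 26 to 50 they were 1.57, 1.66 and 1.80 at low-CpG promoters, against 1.77, 1.90 and 2.06 at other promoters and 1.47, 1.62 and 1.84 at distal sites. What made the ratios differ was not tested.

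**Figure D4:**
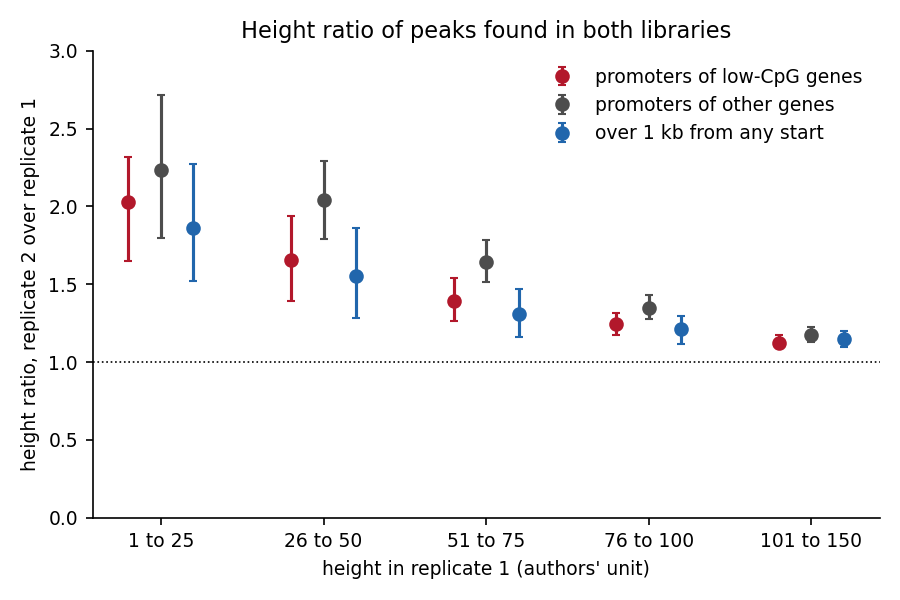
Ratio of peak heights, replicate 2 over replicate 1, for peaks paired between the libraries, as medians with quartiles by replicate 1 height (authors' unit). Low-CpG promoters (red) lie below the other promoters (grey) in each of the 5 ranges, for example 1.66 against 2.04 at heights of 26 to 50, where distal sites (blue) have 1.55.

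The paired low-CpG promoter peaks also stood near the distal sites in level and base content. Over all heights, the 876 such peaks had median heights of 47 and 74, the 20947 at other promoters 80 and 115, and the 62945 distal ones 44 and 66. Median GC content was 55.3% at low-CpG promoters, 65.3% at other promoters and 51.3% at distal sites, and the median number of CpG was 3, 12 and 2.

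A few genes ranked very differently in the libraries. Gm11444 stood at 111 in replicate 1, where its peak lay 1043 bp after the start, and at 50 in replicate 2, where the peak lay 617 bp before a start. Lrtm1, a leucine-rich repeat membrane protein, had 105 and 79, Crxos had 66 and 38, Sel1l2 had 48 and 26, and 6030498E09Rik had 50 and 33. In the other direction, Klhl35 had 47 and 111, Bfsp2, a filament protein of the eye lens, had 27 and 86, and the liver enzyme gene Arg1 had 21 and 75. Nhlh2, a basic helix-loop-helix factor of young neurons, had 33 and 92, and the hotspot under its peak was 105 bp wide in replicate 1 and 3810 bp in replicate 2.

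Among low-CpG genes with a peak in 1 library alone, which are not counted as open, the replicate 2 list held tall peaks. Gm17402 stood at 122, the hindbrain patterning gene Hoxb3 at 104, the limb and heart factor gene Tbx5 at 94, and Sv2a, a synaptic vesicle protein, at 81. These peaks lay 1073, 461, 727 and 99 bp after the start, in that order. The tallest in replicate 1 alone were Asgr1 at 68 and S100a3 at 61, with peaks 1072 bp after and 1062 bp before the start. The peaks of Gm17402, Asgr1 and S100a3 thus only touched the edge of the window. Whether the other library had a peak just outside it was not examined. In replicate 2 alone 59 of 393 genes passed their library's median height, and in replicate 1 alone 14 of 135 did. These examples were chosen after their values were seen.

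Core promoter words differed between the classes. A TATA word stood 40 to 20 bases before 48 of the 1360 open low-CpG starts (3.53%, 2.61 to 4.65), 636 of 9375 low-CpG starts without a peak (6.78%, 6.28 to 7.31) and 256 of 25496 other open starts (1.00%, 0.885 to 1.13). Over all starts the share was 2.62%. The 48 starts belong to 43 genes, and starts of 1 gene are not independent. Median heights were 46.5 and 68.5 at open low-CpG starts with the word and 49 and 76 at those without it. Counting only starts with the highest peaks within 100 bp in both libraries, the word was found at 11 of 423 low-CpG starts (2.60%, 1.31 to 4.61) and 92 of 11535 other starts (0.798%, 0.643 to 0.977). The base pair CA at the start, with A as the first transcribed base, was present at 22.8% of open low-CpG starts, 22.5% of low-CpG starts without a peak and 15.5% of other open starts.

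In the window from 250 bases before to 49 after the start, the GC box was found at 25.3% of open low-CpG starts, 5.97% of low-CpG starts without a peak, 66.5% of other open starts and 45.4% of all starts. The CCAAT box varied far less, at 37.2%, 39.5%, 35.9% and 36.8% in the same order. In the 150 bp of the highest peak in replicates 1 and 2, the proneural E-box CAGATG was found in 10.6% and 11.4% of low-CpG genes, against 4.44% and 4.15% of the other open genes, and the Sox word ACAAAG in 11.7% and 12.4%, against 5.51% and 5.24%. Words of other factors differed in the same direction. In replicate 1 the E-box CAGCTG was found in 18.3% against 8.27%, the AP-1 word TGANTCA in 3.78% against 1.59%, the GATA word AGATAA in 2.97% against 1.32%, and the nuclear receptor word AGGTCA in 9.50% against 4.21%. In the window around starts, low-CpG starts without a peak held CAGATG and ACAAAG no less often than open ones, with 20.4% and 21.4% at open low-CpG starts against 21.8% and 25.5% at those without a peak. The ETS word CCGGAA, which holds a CpG, was found in 6.64% and 6.52%, against 20.6% and 20.8%. All were searched on both strands, and the base content of the classes differs as given above. A match marks letters, not binding.

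The motif of CTCF, a zinc finger protein that anchors chromatin loops, was found in the highest peak of 59 low-CpG genes in replicate 1 (6.75%, 5.18 to 8.62) and 55 in replicate 2 (6.29%, 4.78 to 8.11), against 0.967% and 0.605% of the other open genes. Median heights were 66 and 90 with the motif and 48 and 75 without it. The replicate 1 share differed between the position sets. It was 2.95% of the genes with close peaks in both libraries, 11.4% of those with peaks over 500 bp away in both, and 6.93% of all others. In the paired peaks the motif was found at 6.39% of low-CpG promoter peaks (4.86 to 8.22), 0.931% of other promoter peaks and 9.93% of distal ones. The highest genes with it in both libraries were Amigo3, the bile acid enzyme gene Hsd3b7 (103 and 122), the mucin gene Muc1 (102 and 117), Tmem211 (96 and 122) and the collagen gene Col1a1 (102 and 111).

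The motif of RFX factors, which switch on genes of cilia, is GTTGCC, any 2 bases, GG, any base and AAC. It was found in the highest peak of 9 low-CpG genes in replicate 1 (1.03%, 0.472 to 1.95) and 8 in replicate 2, against 0.362% of the other open genes in both. It was found in Camk2a (103 and 118), a kinase of synapses, Iqca (98 and 117), Ankfn1 (76 and 109) and Ccdc180 (76 and 100) in both libraries, and in Btbd17 (114 and 124) in replicate 1. The Fam92b stretch printed above led to a search, chosen after it was seen, for the related inverted repeat of GTTGC and GCAAC with 3 bases between them. Besides Fam92b (119 and 124), it was found in 5 low-CpG genes in both libraries (0.573%, 0.186 to 1.33), against 42 and 38 of the other open genes (0.310% and 0.280%). With 2 bases between the words, also tried, it was found in 0 of 874. At distal paired peaks the share with 3 bases was 0.384%. The 5 were Ube2u (89 and 109), Ppp1r32 (76 and 93), Caps2 (64 and 91), 4933407L21Rik (57 and 75) and Sel1l2, each with the peak within 100 bp of a start in both libraries.

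Which low-CpG genes were open varied widely between gene families. The open share also climbed with the CpG ratio inside the class, from 1.68% below 0.05 to 35.9% between 0.3 and 0.35. The families and lists below were not matched for that ratio, so a family's share cannot be told apart from its CpG content. Of 1503 low-CpG genes for chemosensory receptors, 14 were open (0.931%, 0.510 to 1.56), and without this group 860 of 5603 low-CpG genes were (15.3%, 14.4 to 16.3). The 14 were 11 of 1105 olfactory receptors, led by Olfr557 (54 and 58), 1 of 328 vomeronasal receptors, Vmn1r200 (30 and 36), and 2 of 70 taste, trace amine and Mas-related receptors. Of the last pair, the taste receptor gene Tas1r1 (97 and 122) had its replicate 1 peak 37 bp from the start of Nol9, a gene of ribosome making, and Mrgpre had 73 and 98. Open genes numbered 1 of 82 among keratins (Krt77 with 25 and 44), 2 of 63 among defensins, 0 of 25 among prolactins and 0 of 8 among globins. Cytochromes P450, with 10 of 82 led by Cyp4f13 (60 and 85), serpins, with 7 of 55 led by Serping1 (88 and 121), and interleukins with their receptors, with 5 of 56 led by Il11ra1 (101 and 123), lay near the 12.3% of all low-CpG genes. Solute carriers had 19 of 98 (19.4%), led by the bicarbonate transporter gene Slc4a7 (108 and 127). The Slc4a7 peak lay 551 and 871 bp after the start, where the CpG ratio was 0.831 and 0.956.

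**Figure D5:**
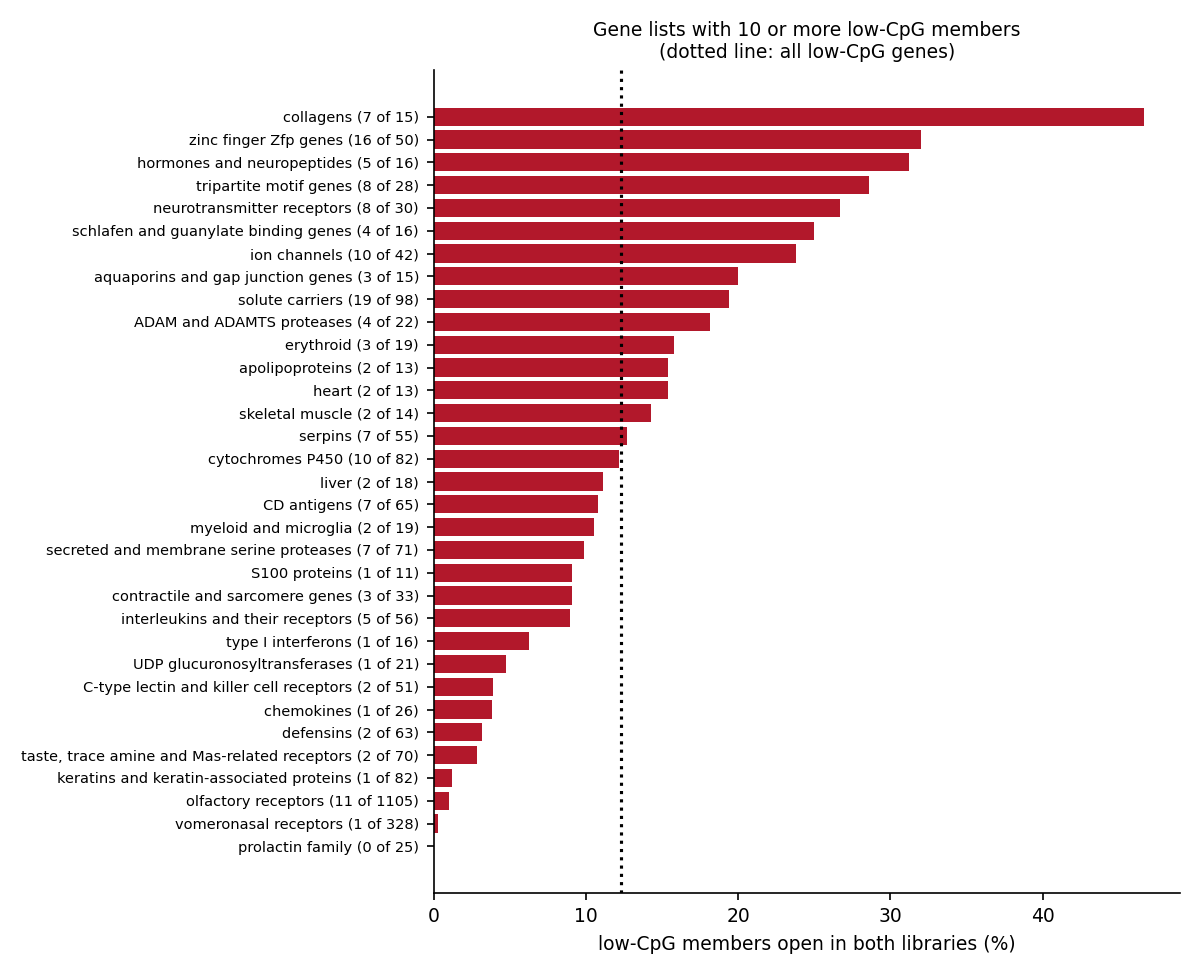
Percent of low-CpG members open in both libraries, for each gene list with 10 or more low-CpG members, with counts in the labels. The dotted line is the 12.3% of all low-CpG genes; collagens (7 of 15) stand at the top, and olfactory receptors (11 of 1105) and vomeronasal receptors (1 of 328) near the bottom.

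Some other families had higher shares than the 12.3% of all low-CpG genes. Of 15 low-CpG collagen genes 7 were open, with Col1a1 (102 and 111), Col22a1 (87 and 111) and Col24a1 (58 and 91) the highest. The Col1a1 peak lay 966 and 926 bp into the gene. Of 50 low-CpG Zfp genes, which code for zinc finger proteins, 16 were open with median heights of 80 and 96, led by Zfp646, Zfp457 (93 and 125) and Zfp93 (107 and 113). In 5 of these 16 the central 31 bases of the peak in a library had a second copy in the genome, so reads of copies may have been mixed there. Ion channels had 10 of 42 open, led by Cacng8 (67 and 99), and neurotransmitter receptors 8 of 30, led by the muscarinic receptor gene Chrm4 (85 and 98) and P2rx6 (72 and 104), whose replicate 1 peak lay 83 bp from the start of Lrrc74b. The Chrm4 peak lay 781 and 821 bp after the start, within a coding exon. Tripartite motif genes had 8 of 28, led by Trim69 (82 and 104).

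Among lists of cell types, all 4 low-CpG genes of neurons were open, against 12.3% of all low-CpG genes. They were Celf3, an RNA-binding splicing factor (72 and 109), Stmn2, a regulator of axonal microtubules (66 and 100), Chat, which makes acetylcholine (33 and 71), and Dcx, a microtubule protein of migrating neurons (32 and 49). The Chat peak lay 687 and 727 bp after the start, and in replicate 1 its distance to the start of Slc18a3, the acetylcholine transporter gene within the same locus, was 420 bp. Of the 2 low-CpG genes of progenitors, Fabp7, the fatty acid binding protein of radial glia, stood at 84 and 117, and Dbx2 was not open. Glial genes had 3 of 8 open, with the astrocyte gene Aldh1l1 at 66 and 76, the water channel gene Aqp4 at 39 and 60, and Mobp at 30 and 41, while genes such as Mag, Mog, S100b and Sox10 were not open. Mesenchyme had 4 of 6, namely Col1a1, Col3a1 (41 and 65), Dcn (34 and 50) and Lum (28 and 56). Hormones and neuropeptides had 5 of 16, with Hcrt (99 and 125), Npff (85 and 97) and Gh (67 and 76) the highest. The Hcrt peak lay 998 and 1018 bp after the start, within a coding exon.

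Lists of blood, liver, heart and skeletal muscle lay near the 12.3% of all low-CpG genes in the share open in both libraries. Lists this small cannot show whether they stand apart. Of 19 low-CpG erythroid genes 3 were open (15.8%), among them Epor (59 and 99) and Ermap (26 and 50). Gata1, Alas2 and the listed globins were not. Myeloid cells had 2 of 19 (10.5%), with Cd68 at 37 and 60 and C1qa at 28 and 43, while Csf1r, Aif1, Cx3cr1 and Spi1 were not open. Liver had 2 of 18 (11.1%), with Apob at 79 and 96 and Vtn at 38 and 42, while Alb, Ttr and Apoa1 were not open. Heart had 2 of 13 (15.4%) and skeletal muscle 2 of 14 (14.3%). A peak in replicate 2 alone was found in a further 4 of the 13 heart and 4 of the 14 skeletal muscle genes. It was found in 1 of the 19 myeloid genes and in 0 erythroid and 0 liver genes, against 5.53% of all low-CpG genes. Germ cells had 0 of 7, surface epithelium 0 of 4, and endothelium and pericytes 1 of 9, which was Rgs5 (26 and 56).

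Further groups were drawn up after the highest genes had been read through, so their counts describe and do not support anything. The share over all low-CpG genes was 12.3%. Of 16 low-CpG genes with symbol prefixes of motile cilia and the axoneme, 10 were open, with median heights of 75 and 101.5. The highest were Cfap44 (101 and 112), Cfap161 (101 and 110), Rsph14 (77 and 122) and Efcab1 (88 and 104), and in 7 of the 10 the highest peak lay within 100 bp of a start in both libraries. All 7 low-CpG genes on a list of 21 lysosomal proteins were open, with medians of 99 and 114, and 6 of them close to the start. Among them were Dpp7 (99 and 131), Tpcn2 (108 and 121), the growth factor gene Grn (107 and 114), the peptidase gene Tpp1 (97 and 115), the hyaluronidase gene Hyal1 (93 and 109) and Glmp (66 and 105). Of 4 low-CpG basic helix-loop-helix genes of neurons 3 were open, namely Nhlh1 (59 and 99), Neurod4 (58 and 88) and Nhlh2. Both low-CpG stathmin genes were open, with Stmn4 at 92 and 106. Of 20 low-CpG genes of the major histocompatibility complex 7 were open, led by the class II genes H2-Ab1 (92 and 101), H2-Eb1 (70 and 94) and H2-Aa (61 and 77). Their medians were 42 and 48, and 5 of the 7 had close peaks in both libraries. Of 26 interferon regulatory or interferon-induced genes 11 were open, led by Irf9 (87 and 105). These had medians of 44 and 68, and only 3 of the 11 had close peaks. The medians of all open low-CpG genes were 49 and 76.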

How the data were processed

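DNase-seq was done on 2 libraries of 1 group. The authors aligned reads to mm10, per the labels. The sources used here give no aligner, peak caller or depth. In the authors' deposited peaks each entry holds a signal, the peak height, as whole numbers of unknown scaling. The deposited hotspots hold the −log10 of a false discovery rate, from 1.30 to 6, or 100. Peaks and hotspots were called by the authors in each library, per the text beside the files. 

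Entries off the autosomes, X and Y were dropped, as were 32 and 60 repeated ones. Starts came from the basic GENCODE M21 set without readthrough transcripts, and bases from GRCm38.p6. A window counted as holding a peak from 1 bp of overlap, and ties for the highest peak went to the one nearest the start. Distance ran from the peak centre to a start. Pairs of peaks overlapped by at least 75 bp. Shares carry 95% exact (Clopper-Pearson) intervals for counting error over genes or starts. A single group of 2 libraries allows no test between groups. Functions were tested on simulated sequence with planted answers. Work was done in Python 3.11.15 (scipy 1.17.1, numpy 2.4.6, matplotlib 3.10.9, pandas 2.3.3).

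No sequence of chromosome 18 was printed, and some genes that the rule names are not reported here. Members, gene lists and motifs were chosen with earlier results of these data known. Named were the 15 highest and 5 lowest genes by mean rank, the 5 with the largest rank difference in each direction, up to 3 open genes of a list, and genes next to the CpG limit; other genes were chosen after their values were seen.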

Additional observations from a re-analysis of the deposited data

How the results depend on the processing

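No paired analysis was possible because the series has 1 group. Of 92 values recomputed over 14 alternatives, 63 stayed within 1.5 times the count or within the 95% interval of the reported value, and 29 moved. With peaks above their library's median height alone, 553 genes were open (7.78%), medians were 66 and 93, rho was 0.821, and 38.9% lay within 100 bp of a start in both libraries, against 34.9% as reported. With a CpG limit of 0.30 the open share was 9.39% and the medians 46 and 70, and with 0.40 the share was 15.7% and the replicate 2 median 80. Windows of 500 bp gave a share of 9.58% and 48.0% near a start, and windows of 2 kb gave 17.1% and 23.0%. Requiring peaks of the libraries to overlap by 75 bp gave a share of 10.8%, a replicate 1 median of 53 and 38.6% near a start. A narrower CpG window gave 29.2% near a start. With peaks of a single library, which gives no rho and no median for the library left out, the open share ranged from 14.2% to 17.8%, the share near a start from 38.3% to 38.9%, the replicate 1 median was 44 and the replicate 2 median 58. The genes with close peaks alone, an alternative chosen after seeing the data, numbered 305, with medians of 58 and 82 and a TATA word at 2.22% of their open starts. The TATA share otherwise moved in none of 13 alternatives. The other annotation, the removal of repeated peak centres, of X and Y, and of windows with a neighbouring start moved none of the 7 results. The median height ratio of low-CpG minus other promoters at heights of 1 to 25, -0.207 by replicate 1 height, was 0.0347 by mean height.

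Absent peaks do not show closed chromatin, since the depth is unknown. Heights cannot be compared between libraries as levels. The cause of the moves was not tested.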
